A study of Mus musculus with 2 samples.

Results

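The fibrinogen and clotting factor loci were the 7 places in the mouse genome that hold Fga, Fgb, Fgg, F2, F5, F7, F10, Plg, Serpinc1 and Proc, 10 of the 21631 protein-coding genes of chromosomes 1 to 19 and X. Each locus was every 50 kb bin that overlaps the mm10 span of a gene, and genes that share a bin were joined. This gave 11 of 52685 bins. Contacts came from Foxa2 HiChIP of liver from wildtype mice, collected 4 h after gavage. The GW4064 library came from mice given 1 oral dose of GW4064, an agonist of the bile acid receptor FXR. The vehicle library came from mice given only the carrier, which was propylene glycol with Tween 80. HiChIP ligates DNA ends that lie near each other in the nucleus and recovers the pairs with an antibody, here an antiserum against Foxa2, a forkhead factor of hepatocytes. The labels do not give strain, sex, age or the number of animals behind a library.

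Each group held 1 library, so every difference below compares these 2 libraries and not the treatments, and no test or p-value is possible. The GW4064 library held 29003442 contacts and the vehicle library 22686004. Intervals are exact 95% intervals for counting error only. A weaker recovery of a bin by the antiserum and fewer contacts of that bin cannot be told apart, and no RNA was measured. The bins of the 6 hepatocyte markers held 0.526 to 1.42 times the mean same-bin contacts in the GW4064 library and 0.984 to 1.40 times in the vehicle library. Those of 3 neuronal markers held 0.527 to 1.26 times in the GW4064 library and 0.763 to 1.14 times in the vehicle library, so these overlapping levels do not check the tissue label.

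Blood clotting runs through a chain of proteases that hepatocytes secrete as inactive precursors. Factor VII starts the chain with tissue factor, factor X with its cofactor factor V converts prothrombin (F2) to thrombin, and thrombin turns fibrinogen into fibrin. Antithrombin (Serpinc1) and protein C (Proc) restrain the chain, and plasminogen (Plg) is the precursor of the enzyme that dissolves fibrin. Fibrinogen is built of the chains encoded by Fga, Fgb and Fgg and increases in the acute phase response through interleukin 6. FXR agonists are known to raise fibrinogen gene expression in human hepatocytes.

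The promoters of the fibrinogen genes are shown because all 3 genes lie in 1 bin, described first below. That bin ends at 83050000. The printed Fgb bases reach 3 bases into the next bin, and the Fgb bases searched for motifs reach to 83050113. The 140 bases before each start are given 5′ to 3′ from RefSeq on GRCm38.p6, at chr3:83026013-83026152 on the plus strand for Fga, chr3:83049864-83050003 on the minus strand for Fgb and chr3:83007584-83007723 on the plus strand for Fgg. Capitals mark matches, on either strand, to TATTTAC (a forkhead motif), GTTAAT (an HNF1 motif), TTGCNNAA (C/EBP) and CTGGGA (the interleukin 6 response motif).
Fga: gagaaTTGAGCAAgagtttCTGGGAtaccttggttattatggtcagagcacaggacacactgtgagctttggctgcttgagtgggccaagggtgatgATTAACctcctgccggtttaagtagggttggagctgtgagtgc
Fgb: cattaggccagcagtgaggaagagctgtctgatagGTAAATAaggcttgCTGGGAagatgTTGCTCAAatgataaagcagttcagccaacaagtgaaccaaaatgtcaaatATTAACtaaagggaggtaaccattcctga
Fgg: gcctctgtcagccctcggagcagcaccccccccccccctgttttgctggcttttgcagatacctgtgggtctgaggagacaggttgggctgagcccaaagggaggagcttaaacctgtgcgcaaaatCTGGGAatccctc

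With the base before the start as -1, the HNF1 match began at -43 in Fga and at -29 in Fgb, and both genes also held a C/EBP match and a CTGGGA. Over the 250 bases before the start, 8 of the 10 genes matched the promoter table, and Plg and Proc did not. The F7 window, taken from chromosome 8, 13025784 to 13026083, lies inside the gene span, which begins at 13025506. CTGGGA was found in 4 of these 8 promoters (Fga, Fgb, Fgg and F10) and in 27% of 32544 promoters, and GTTAAT in 2 of 8 and in 6.47%. TTGCNNAA was found in 2 of 8 and in 9.58%. Of the forkhead motifs, TATTTAC was found in 1 of 8, Fgb, and in 2.73% of all promoters. TGTTTAC was found in 0 of 8 and in 3.17%. The forkhead motif TGTTTGC was found in 0 of 8 and in 4.31%. The FXR response element of the inverted repeat type, searched only as a fixed string, was found in 0 of 8 and in 0.0246%. That string was present in 8 of 32544 promoters, too few for 0 of 8 to show that FXR sites are absent. A match is a description of these letters, and bins of 50 kb cannot place a bound site among them.

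All 7 loci held fewer contacts, relative to the library, in the GW4064 library than in the vehicle library. Contacts that link a locus to bins outside it, within 2 Mb, were summed and scaled to equal totals of that class, and a locus was called at a ratio of at least 1.2-fold with at least 200 contacts over both libraries. By this rule 5 of 7 loci were lower in GW4064 and 0 were higher. The background was high, since 36.3% of 17060 protein-coding loci were lower and 2.98% were higher. The median log2 ratio of GW4064 over vehicle was -0.31 for the 7 loci and -0.16 for all protein-coding loci. The lower and upper quartiles of all protein-coding loci were -0.37 and 0.016, so a ratio below 0 was common among them. The interval lay below 0 for 6 of the 7 loci, against 40.8% of protein-coding loci, and above 0 for 0, against 5.37%. It lay below the median protein-coding locus for 3, the fibrinogen cluster, F5 and F7/F10, against 22% of protein-coding loci. Scaling to equal total contacts would add 0.14 to every log2 ratio. Under that scaling the fibrinogen cluster and F7/F10 were the 2 loci called lower and 0 were higher, against backgrounds of 21.7% and 12.7%. The same 2 were lower and 0 higher against the median locus, with backgrounds of 20.3% and 14.4%, and against loci of like gene density, with 12.8% and 13.4%. Against loci of like gene density F2 had -0.015 and Proc had 0.01, so the direction shared by all 7 loci did not hold there. At 1.5-fold 1 locus, F7/F10, was lower and 0 were higher, against 9.06% and 0.0469%. Up to 1 Mb 5 loci were lower and 0 higher, against 35.3% and 3.52%, and up to 500 kb 5 and 0, against 33.7% and 4.39%. With 1 more bin on each side 3 were lower and 0 higher, against 35.5% and 2.12%. After division by the number expected from distance 5 were lower and 0 higher, against 36.7% and 2.92%, and with the GW4064 library thinned 5 and 0, against 36.2% and 3.01%. Taken gene by gene, 8 of 10 were lower and 0 higher, against 39.9% and 3.03% of protein-coding genes. These 8 genes lie in the same 5 loci, since Fga, Fgb and Fgg share 1 bin and its counts, and the bin of F7 is also counted for F10.

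**Figure D1:**
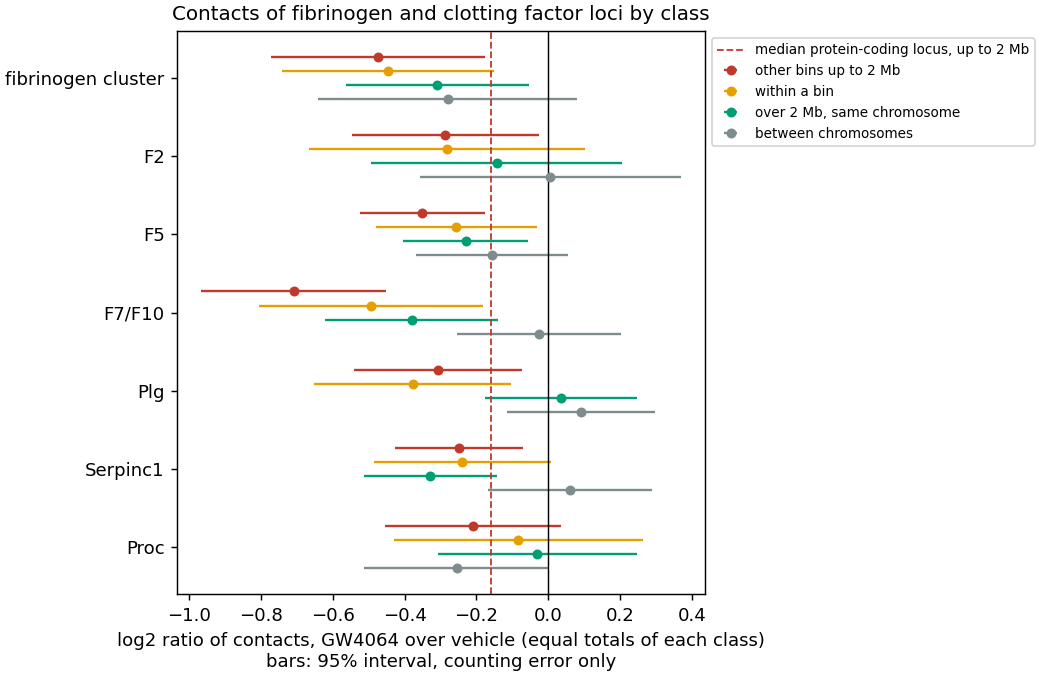
Log2 ratio of contacts, GW4064 over vehicle, for the 7 loci (rows) and 4 classes of contact (colours), each class scaled to equal totals. Points are the ratio of 1 library to 1 library, bars are 95% intervals for counting error, and the dashed line is the median protein-coding locus at -0.16. Up to 2 Mb all 7 points lie below 0, and between chromosomes they lie on both sides of it.

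The fibrinogen cluster held few contacts with other bins and many within its own bin. Fgg (chromosome 3, 83007724 to 83015056), Fga (83026153 to 83033627) and Fgb (83042246 to 83049863) encode the gamma, alpha and beta chains and lie whole within 1 bin that holds no other protein-coding gene. Up to 2 Mb it held 190 contacts in GW4064 and 187 in vehicle, a log2 ratio of -0.47 (interval -0.77 to -0.18). This bin stood apart from its surroundings. The 10 bins on each side had log2 ratios between -0.11 and 0.28, with a median of 0.08, so each of the 20 lay above the fibrinogen bin. Contacts that span the bin, from the 10 bins on one side to the 10 on the other, numbered 404 in GW4064 and 275 in vehicle. They had a log2 ratio of 0.03 (-0.19 to 0.26) after division by the number expected from distance.

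Much of the difference at the fibrinogen bin lay in its contacts with 1 neighbour. The next bin, which holds Plrg1, a spliceosome gene, shared 57 contacts with the fibrinogen bin in GW4064 and 71 in vehicle. The mean bin pair at that distance held 42.02 in GW4064 and 30.4 in vehicle, and the log2 ratio of this pair was -0.78 (-1.31 to -0.26). The neighbour on the other side, with no protein-coding gene, shared 14 contacts in GW4064 and 13 in vehicle. The Plrg1 bin thus held more of its contacts than the adjacent bin on the other side in both libraries. Over all distances up to 2 Mb the lower side held 90 and the higher side 100 in GW4064, against 71 and 116 in vehicle. Fgb starts 137 bases from the edge of the Plrg1 bin, so short ligations across that edge count among these contacts. Without the Plrg1 bin the fibrinogen cluster held 133 contacts in GW4064 and 116 in vehicle, a log2 ratio of -0.30 (-0.67 to 0.07), and with 1 more bin on each side the ratio turned to 0.05. These neighbours were singled out after their values were seen.

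The distance profile of the fibrinogen bin was uneven. At 150 to 500 kb it held 46 contacts in GW4064 and 28 in vehicle, 0.471 and 0.418 times the number expected from distance, the lowest level of the 7 loci in vehicle at that range. At 50 to 100 kb, the Plrg1 bin included, it held 0.689 times the expected number in GW4064 and 1.14 times in vehicle. At 1050 to 2000 kb it held 29 contacts in GW4064 and 36 in vehicle, 0.691 and 1.15 times the expected number.

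A single far partner carried many of the distant contacts of the fibrinogen bin. The bin 1050 kb to the lower side (chromosome 3, 81950001 to 82000000) holds Tdo2, which encodes the liver enzyme that opens the ring of tryptophan, with parts of Ctso, a cathepsin, and Asic5, an ion channel. It shared 6 contacts with the fibrinogen bin in GW4064 and 14 in vehicle, where the mean pair at that distance held 1.56 in GW4064 and 1.13 in vehicle. With the coverage of both bins taken into account, that was 6.05 times the expected number in GW4064 and 11.6 times in vehicle. The flanking bins at 1100 and 1000 kb held 2 and 4 contacts in GW4064 and 2 and 2 in vehicle. Of 52265 bin pairs at 1050 kb, 43 (0.0823%) held 20 or more contacts over both libraries. At least 14 in the vehicle library was reached by 7 pairs, this one included, and at least 6 in the GW4064 library by 1773 pairs (3.39%). The log2 ratio of the pair was -1.68 with a wide interval of -3.35 to -0.21. The rule for named partners gave this pair, and its comparison with other pairs was added after its counts were seen.

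**Figure D2:**
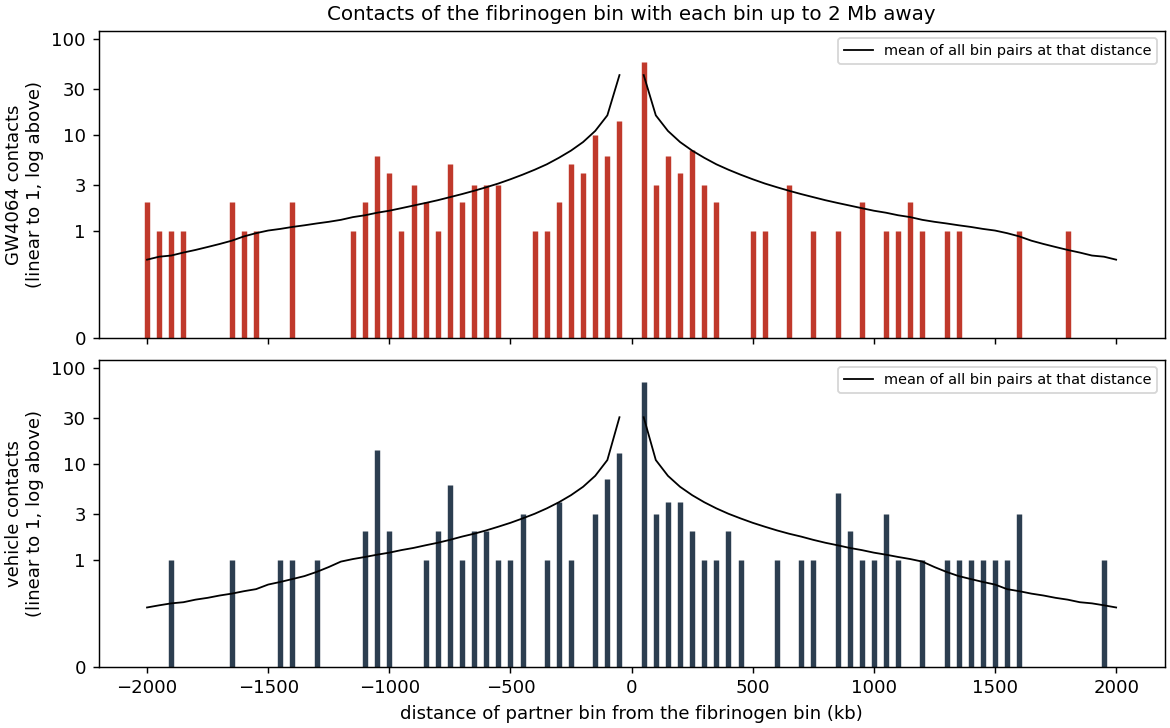
Contacts of the fibrinogen bin with each 50 kb bin up to 2 Mb away (x axis, kb) in the GW4064 library (top) and the vehicle library (bottom), on an axis that is linear to 1 and logarithmic above. The black line is the mean of all bin pairs at that distance in the same library. The Plrg1 bin at 50 kb holds 57 contacts in GW4064 and 71 in vehicle, and the Tdo2 bin at -1050 kb holds 6 and 14.

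F2 sat in a compact neighbourhood, with few contacts beyond about 1 Mb on either side. F2 encodes prothrombin (chromosome 2, 91612397 to 91636457) and shares its bin with parts of Ckap5 and Zfp408. Its bin held 266 contacts up to 2 Mb in GW4064 and 230 in vehicle, a log2 ratio of -0.29 (-0.55 to -0.03). Of these, only 2 in GW4064 and 4 in vehicle lay at 1050 to 2000 kb, 0.0476 and 0.128 times the number expected from distance. At that range 1.27% of 13898 protein-coding loci of 1 or 2 bins lay lower in GW4064 and 2.45% in vehicle. On the lower side the count at that range was 1 in GW4064, where 20.997 were expected, and 0 in vehicle, where 15.6 were expected and a count of 0 allows up to 3. Those 20 bins hold 32 protein-coding genes, 30 of them olfactory receptors, and none of the 20 was without contacts of its own in either library. On the higher side the count was 1 in GW4064 and 4 in vehicle. The bins there were themselves sparse, with a mean coverage of 0.494 in GW4064 and 0.588 in vehicle. With the coverage of both bins taken into account, F2 held 0.121 and 0.439 times the expected number on that side.

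Within that neighbourhood the F2 locus differed from its surroundings less than the fibrinogen bin did. All 20 flanking bins had a log2 ratio below 0, with a median of -0.31, and 13 of them lay below F2. The 21 bins around F2 hold 20 protein-coding genes. Against the median locus of like gene density F2 had -0.015 (-0.27 to 0.25), so its difference was not seen there. Contacts that span F2 numbered 442 in GW4064 and 462 in vehicle, 1.16 and 1.74 times the number expected from distance, a log2 ratio of -0.58 (-0.78 to -0.39). At 50 to 100 kb F2 held 144 contacts in GW4064 and 94 in vehicle, a log2 ratio of 0.13 (-0.26 to 0.52) against the expected numbers. At 150 to 500 kb it held 83 in GW4064 and 91 in vehicle, and the ratio was -0.68 (-1.12 to -0.23). The called pair of F2 was higher in GW4064, at 24 contacts against 9 in vehicle with the bin of Lrp4 and Ckap5 100 kb away, but its interval of -0.30 to 2.15 includes 0.

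Relative to distance alone, F5 was the locus with the most contacts at 1050 to 2000 kb. F5 encodes factor V, the cofactor of factor X (chromosome 1, 164151835 to 164220277), and spans 2 bins, of which the first also holds part of Selp (P-selectin) and the second part of Slc19a2, a thiamine transporter. It held 570 contacts up to 2 Mb in GW4064 and 515 in vehicle, a log2 ratio of -0.35 (-0.53 to -0.18). At 1050 to 2000 kb it held 132 in GW4064 and 118 in vehicle, 1.57 and 1.89 times the expected number, above 95.04% of protein-coding loci in GW4064 and 98.2% in vehicle. By distance alone this is the opposite end from F2, and both positions were alike in the 2 libraries. With the coverage of both bins taken into account, F5 held 1.36 times the expected number in GW4064 and 1.21 times in vehicle. F7/F10 then held more than F5, at 1.62 in GW4064 and 1.24 in vehicle, so F5 did not stand apart by that measure. Contacts that span F5 held 0.570 times the expected number in GW4064 and 0.484 times in vehicle, where the median protein-coding locus held 0.663 and 0.788, with a log2 ratio of 0.24 (-0.11 to 0.59). The first bin of F5 had a log2 ratio of -0.44, below each of its 20 flanking bins, and the second had -0.24, above 5 of them.

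F7/F10 had the lowest ratio of the 7 loci. F7 encodes factor VII (chromosome 8, 13025506 to 13035809) and F10 encodes factor X (13037308 to 13056676). They lie side by side over 2 bins that also hold parts of Mcf2l and Pcid2 and the gene of protein Z, Proz. The locus held 235 contacts up to 2 Mb in GW4064 and 272 in vehicle, so the count itself was smaller in the deeper library. The log2 ratio was -0.71 (-0.97 to -0.45), and 4.11% of protein-coding loci lay lower. The first bin, with F7 and the start of F10, had -0.49, and the second, with the rest of F10 and Proz, had -0.77.

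The low ratio of F7/F10 extended to its neighbours. All 20 flanking bins had a log2 ratio below 0, with a median of -0.33 and a lowest value of -0.80, which lay below both bins of the locus. The surroundings are gene-rich, with an average of 19.5 protein-coding genes in the 21 bins around, against a median of 14.5. Against the median locus of like gene density F7/F10 had -0.44 (-0.69 to -0.18). The largest difference by distance was at 150 to 500 kb, with 70 contacts in GW4064 and 98 in vehicle and a log2 ratio of -1.03 (-1.49 to -0.57). By range its contacts held 0.354 to 0.601 times the expected number in GW4064 and 0.479 to 0.938 times in vehicle. At 1050 to 2000 kb it held 0.524 times in GW4064 and 0.719 times in vehicle, where the median protein-coding locus held 0.643 and 0.799.

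The plasminogen locus was sparse in both libraries. Plg (chromosome 17, 12378609 to 12419384) spans 2 bins and shares the second with part of Slc22a3, an organic cation transporter. It held 325 contacts up to 2 Mb in GW4064 and 285 in vehicle, 0.627 and 0.779 times the expected number. Its log2 ratio was -0.31 (-0.54 to -0.07), and its flanking bins had a median of -0.20, with 4 of 20 below both bins of the locus. Contacts that span Plg held 0.369 times the expected number in GW4064 and 0.510 times in vehicle, below those medians for spanning contacts.

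The genes of the clotting inhibitors were not called at 1.2-fold for contacts up to 2 Mb. Serpinc1, which encodes antithrombin (chromosome 1, 160978583 to 161002543), held 563 contacts up to 2 Mb in GW4064 and 474 in vehicle, a log2 ratio of -0.25 (-0.43 to -0.07). Both of its bins lay below all 20 flanking bins, whose median was -0.01. Its contacts were dense nearby and thinned with distance, from 1.33 times the expected number at 50 to 100 kb to 0.464 times at 1050 to 2000 kb in GW4064, and from 1.77 times to 0.591 times in vehicle. Proc, which encodes protein C (chromosome 18, 32123126 to 32139570) and shares its bin with Iws1, held 310 contacts in GW4064 and 254 in vehicle. Its log2 ratio was -0.21 with an interval of -0.45 to 0.04. At this depth a difference at Proc was not detectable, and 5 of its 20 flanking bins lay lower.

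**Figure D3:**
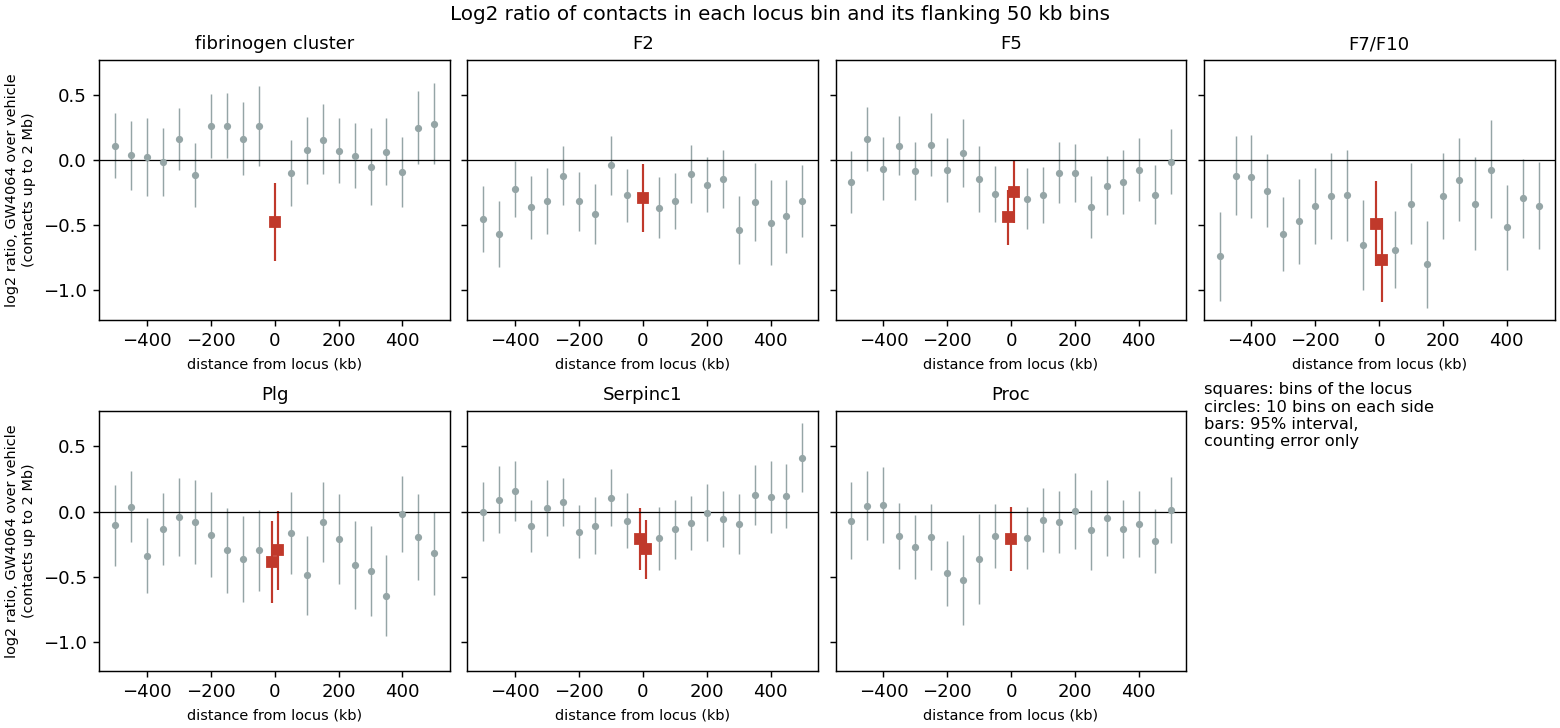
Log2 ratio of contacts up to 2 Mb, GW4064 over vehicle, for the bins of each locus (squares, drawn side by side at 0) and the 10 bins on each side (circles), by distance from the locus in kb. Bars are 95% intervals for counting error. The fibrinogen bin lies at -0.47 below 20 neighbours between -0.11 and 0.28, whereas F2 and Proc lie within the range of theirs.

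Summed over the 7 loci, contacts were lower in GW4064 in each of 4 distance classes, with overlapping intervals. Against the number expected from distance, the summed contacts had a log2 ratio of -0.33 (-0.46 to -0.20) at 50 to 100 kb and -0.40 (-0.54 to -0.25) at 150 to 500 kb. It was -0.27 (-0.50 to -0.04) at 550 to 1000 kb and -0.39 (-0.62 to -0.16) at 1050 to 2000 kb. No background of ratios was computed for these classes, and the median protein-coding locus had -0.16 up to 2 Mb at equal totals. That value is not matched to a distance class. At 1050 to 2000 kb the median protein-coding locus of 1 or 2 bins was itself lower in GW4064, at 0.643 times the expected number against 0.799 in vehicle. The 7 loci summed held 0.697 times in GW4064 and 0.913 times in vehicle there. F5 and Serpinc1 hold much of these sums, and the median over loci ran between -0.21 at 550 to 1000 kb and -0.46 at 1050 to 2000 kb. The exceptions in sign were the fibrinogen cluster at 150 to 500 kb, at 0.17 (-0.54 to 0.90), and F2 at 50 to 100 kb. The levels themselves separated the loci more than the libraries did. Relative to distance, F5, Serpinc1 and Proc held 1.03 to 1.10 times the expected number up to 2 Mb in GW4064 and 1.19 to 1.41 times in vehicle. F7/F10, Plg and the fibrinogen cluster held 0.454 to 0.631 times in GW4064 and 0.744 to 0.877 times in vehicle, and F2 lay between them at 0.884 in GW4064 and 1.08 in vehicle. The median protein-coding locus held 0.831 times in GW4064 and 0.957 times in vehicle.

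**Figure D4:**
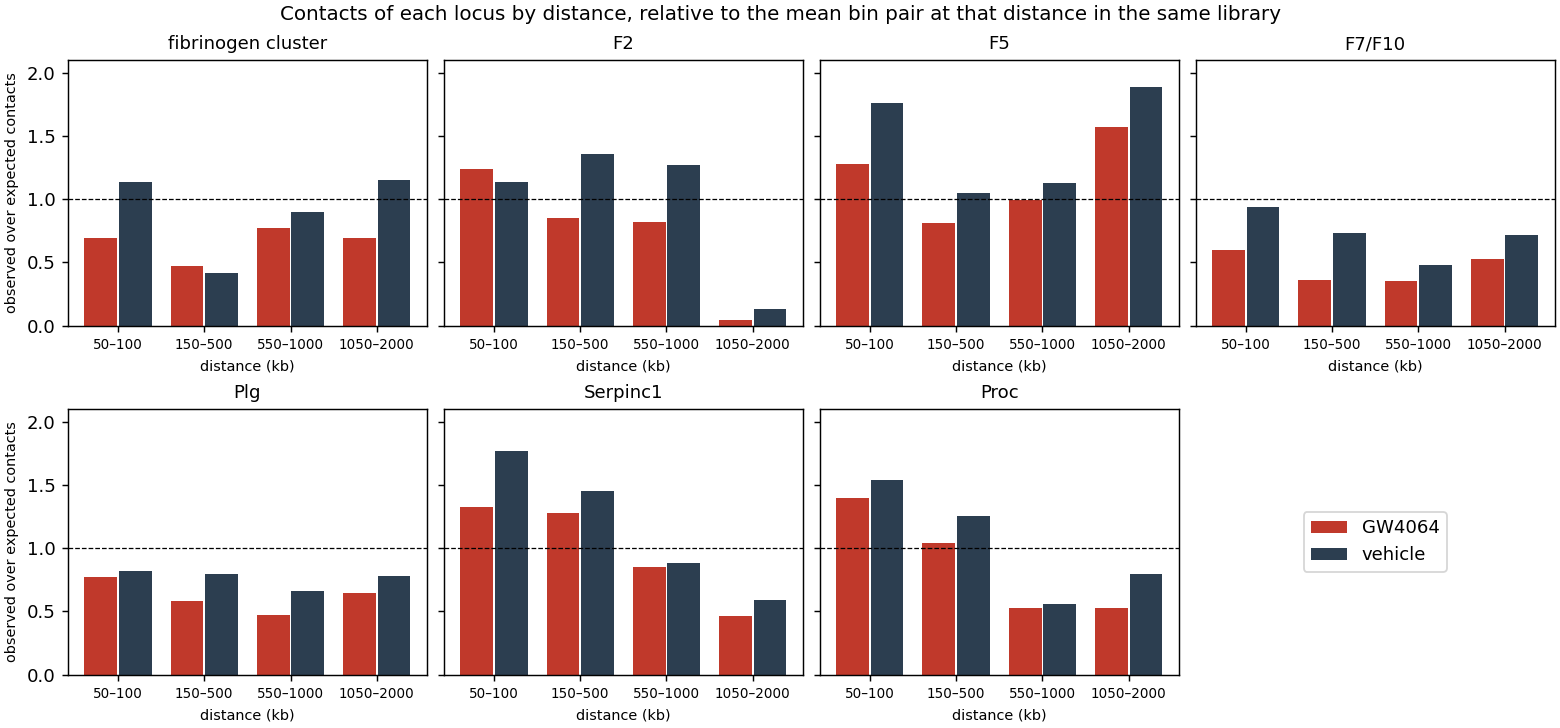
Contacts of each locus in 4 distance classes (x axis, kb), divided by the number expected from the mean bin pair at that distance in the same library, for GW4064 (red, left bar) and vehicle (dark, right bar), 1 library each. The dashed line marks the mean bin pair. F2 drops to 0.0476 in GW4064 and 0.128 in vehicle at 1050 to 2000 kb, where F5 holds 1.57 and 1.89.

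Contacts within a bin set the fibrinogen bin and the first F5 bin apart, more so in the vehicle library. The fibrinogen bin held 195 same-bin contacts in GW4064, 1.32 times the mean bin, and 192 in vehicle, 1.79 times. In the GW4064 library 78.8% of all bins held fewer, and in the vehicle library 99.3% did. The first bin of F5 held 219 in GW4064 (1.48 times the mean bin) and 189 in vehicle (1.76 times), where 89.2% of bins held fewer in GW4064 and 99.1% in vehicle. In GW4064, 6 of 20 flanking bins held more than the fibrinogen bin and 1 of 20 more than the first F5 bin. In vehicle 0 did for either bin. Both bins of F7/F10 and the first bin of Plg lay below the mean bin in each library, at 0.506 to 0.648 times in GW4064 and 0.802 to 0.840 times in vehicle. Scaled to equal totals, same-bin contacts were called lower in GW4064 at 4 of 7 loci (fibrinogen cluster, F2, F7/F10 and Plg), against a background of 29.6%, and higher at 0, against 4.5%. The F2 log2 ratio was -0.28 with an interval of -0.66 to 0.10, which includes 0. F5, not called, had -0.256 (-0.479 to -0.031).

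**Figure D5:**
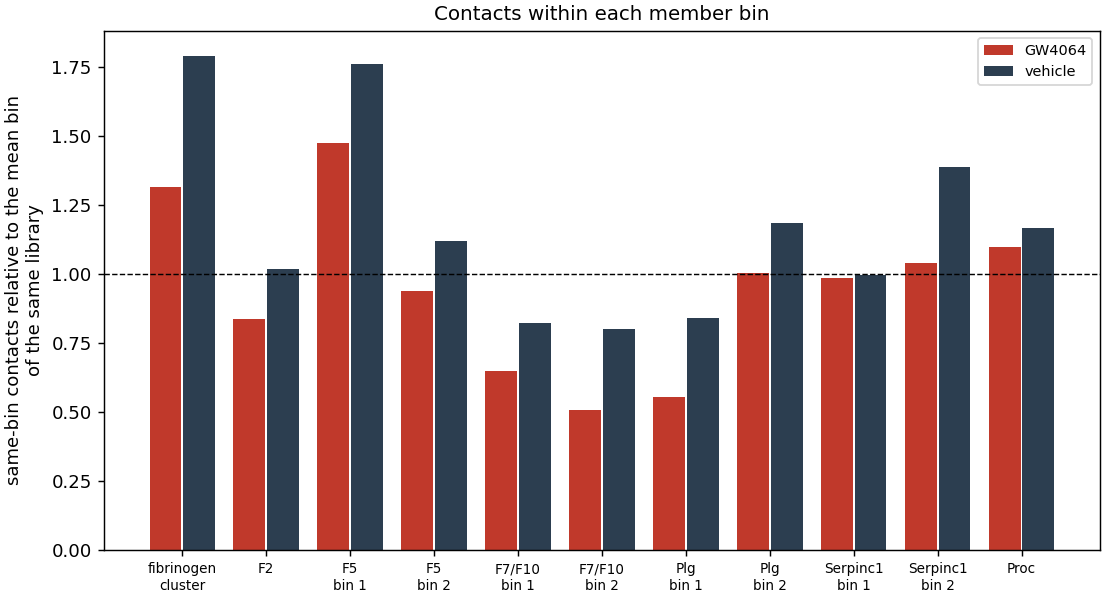
Same-bin contacts of each of the 11 member bins divided by the mean over all bins of the same library, for GW4064 (red, left bar) and vehicle (dark, right bar), 1 library each. The fibrinogen bin stands at 1.32 in GW4064 and 1.79 in vehicle, and the second F7/F10 bin at 0.506 and 0.802.

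By the median over loci, long-range contacts differed less than those up to 2 Mb. For contacts over 2 Mb apart on the same chromosome, 3 of 7 loci were called lower in GW4064 (the fibrinogen cluster, F7/F10 and Serpinc1) and 0 higher, against backgrounds of 33.7% and 2.36%. The median log2 ratio there was -0.23 for the 7 loci and -0.16 for protein-coding loci. Serpinc1 went the other way, with -0.33 (-0.51 to -0.14) over 2 Mb and -0.25 up to 2 Mb. For contacts between chromosomes the fibrinogen cluster was the 1 locus called lower, against backgrounds of 22.8% lower and 3.29% higher, and its interval of -0.64 to 0.08 includes 0. The median log2 ratio between chromosomes was -0.03 for the 7 loci and -0.10 for protein-coding loci. Proc had -0.25 (-0.51 to 0.003) between chromosomes and -0.21 up to 2 Mb. Plg and F7/F10 had the largest shares of such contacts in GW4064, at 29.3% (exact Clopper-Pearson interval 26.9% to 31.7%) and 30.9% (28.1% to 33.8%), and Proc had the largest in vehicle, at 31.7% (28.6% to 34.9%). The fibrinogen cluster had 15.9% (13.4% to 18.7%) in GW4064 and 18.1% (15.5% to 21.01%) in vehicle. Over all contacts 2 loci were lower (the fibrinogen cluster and F7/F10) and 0 higher, against 35.1% and 0.549%.

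Single partner bins were mostly too thin to compare. Of all partner bins 100 kb to 2 Mb away, 33 pairs held at least 20 contacts over both libraries, 14 of them at Serpinc1. At 1.5-fold after distance matching, 9 of 33 were lower in GW4064 and 2 were higher, against backgrounds of 13.9% and 19%. After division by the coverage of both bins, 3 were lower and 8 higher, against 12.2% and 18.7%, so the direction of these counts turned with that setting. At 2-fold 5 were lower and 0 higher, against 4.36% and 7.17%, and of the 5 pairs with at least 40 contacts 1 was lower and 0 higher, against 11.9% and 10.5%. A partner was called enriched where each library held 10 or more contacts, 1.5 times what distance and coverage would give or more. By this rule 8 of 27 were enriched, near the background of 30.5%. At 2 times there were 5, against 16%, and from distance alone 12, against 43.8%. The 8 were 3 at Proc, 2 at F7/F10, 2 at Plg and 1 at F5.

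Apart from the Tdo2 bin, the partner pairs deep enough to compare lay within 250 kb, a range that the minimum count largely sets. For Proc, the bin of Map3k2 and Ercc3 100 kb away shared 45 contacts in GW4064 and 29 in vehicle, 2.85 and 2.16 times the expected number. The bin of Wdr33, Sft2d3, Lims2 and Gpr17 200 kb to the lower side shared 17 in GW4064 and 21 in vehicle, 2.49 and 2.72 times. For Plg, the bin of Agpat4 and Map3k4 150 kb away shared 11 contacts in GW4064 and 12 in vehicle, 3.39 and 3.29 times the expected number. For F5, the bin of Slc19a2, Ccdc181 and Blzf1 shared 32 with its first bin in GW4064 and 36 in vehicle, 1.72 and 1.66 times.

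The clotting loci shared almost no contacts with each other. Over the 20 pairs of loci on different chromosomes there was 1 contact in GW4064, between the fibrinogen cluster and F7/F10, and 0 in vehicle. From the contacts of each bin with the other chromosome, 0.129 were expected in GW4064 and 0.114 in vehicle, so this depth cannot show whether such loci meet. F5 and Serpinc1, 3150 kb apart on chromosome 1, shared 3 contacts in GW4064 and 2 in vehicle, where 1.76 and 1.38 were expected from distance.

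Other genes of clotting, its inhibitors and fibrinolysis were lower in GW4064 or passed neither limit. A list of 41 such genes formed 39 loci, 38 with at least 200 contacts. In GW4064 20 of the 38 were lower at 1.2-fold, 0 were higher and 18 passed neither limit, against backgrounds of 36.3% and 2.98%. Their median log2 ratio was -0.30, and -0.08 against the median locus of like gene density. The lowest were Serping1, which encodes the C1 inhibitor, at -0.86 (-1.12 to -0.59), and Proz, which shares a bin with F10, at -0.77. Adamts13, whose enzyme cuts von Willebrand factor, had -0.70 (-0.93 to -0.48), and Gp1ba, a platelet receptor chain, had -0.65 (-0.89 to -0.40). At the other end F9, which encodes factor IX, held 418 contacts in GW4064 and 249 in vehicle, a log2 ratio of 0.25 (0.02 to 0.48). Tfpi, the inhibitor of the tissue factor pathway, had 0.19 (0.05 to 0.34), Plau, urokinase, had 0.11 (-0.16 to 0.38), and F8, factor VIII, had 0.02 (-0.17 to 0.22). F9 and F8 lie on chromosome X, and the labels do not give the sex of the animals in either library.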

How the data were processed

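Foxa2 HiChIP was measured in liver, with 1 GW4064 and 1 vehicle library. Per the submitters' processing notes, HiC-Pro and Bowtie2 2.2.9 were used on mm10, with no HiC-Pro version, read filter, duplicate removal or pooling recorded there. The authors deposited raw counts of contacts per pair of 50 kb bins, with no normalization. The deposited bin tables hold only bin numbers and positions. Gene spans came from RefSeq on GRCm38.p6, which all 10 genes matched.

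Expected numbers are the mean bin pair at a distance in the same library. With coverage, they are multiplied by the relative contacts up to 2 Mb of both bins. The protein-coding background counts each set of bins once. Ratios have exact conditional binomial intervals. The software was scipy 1.17.1, pandas 2.3.3 and numpy 2.4.6 under Python 3.11.15, with figures from matplotlib 3.10.9, and the calculation of ratios was tested on simulated data. Named are all members, the 4 highest and 4 lowest loci of each list, and up to 3 partner bins a locus, except 1 locus that is not reported here. The members and lists were chosen with earlier results of these data known. Backgrounds of other settings, comparisons with flanking bins, spanning contacts and the surroundings of F2 were added after the data were seen.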

Additional observations from a re-analysis of the deposited data

How the results depend on the processing

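No paired analysis was possible because each group held 1 library. Of the 7 loci, 5 were lower in GW4064. That count was 2 with equal total contacts, 2 against the median protein-coding locus, 2 against loci of like gene density, 2 with all contacts, 1 with contacts between chromosomes, 3 with 1 more bin on each side and 1 at 1.5-fold. With each gene apart, 8 of 10 genes were lower, but Fga, Fgb and Fgg are the same bin and F7 and F10 share a bin. It stayed at 5 up to 1 Mb, up to 500 kb, divided by distance, thinned to the vehicle depth and with no minimum, and was 4 within a bin. No setting gave a locus called higher. The median log2 ratio lay between -0.41, with each gene apart, and -0.15, except for -0.026 with contacts between chromosomes. Under the added bin on each side the fibrinogen cluster had 0.052, and between chromosomes F2 had 0.0066, Plg 0.091 and Serpinc1 0.061. Against loci of like gene density F2 had -0.015 and Proc had 0.013. The cause was not tested. Of 9 lower and 2 higher partner pairs, 3 and 8 were found after division by coverage, 1 and 0 of 5 with at least 40 contacts, and 5 and 0 at 2-fold. Enriched partners were 8, and 5 at 2 times the expected number. Of 79 values of single loci under other settings, leaving out those taken gene by gene, 70 lay within the interval of the reported value. Only 33 pairs held at least 20 contacts over both libraries, so depth limits what partner bins can show.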

Other observations

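Complement genes, another set of plasma proteins made by liver, were lower in GW4064 or passed neither limit. In GW4064 10 of 17 complement loci were lower at 1.2-fold, 0 were higher, and the median log2 ratio was -0.31, against a background of 36.3% lower and 2.98% higher. Against loci of like gene density the median was -0.15, and the windows of C2/Cfb and C8g hold 66 and 62 protein-coding genes. The lowest were C2/Cfb, which encode parts of the C3 convertases, at -0.98 (interval -1.33 to -0.64) and C3 at -0.93 (-1.31 to -0.54). Serping1, which is also on the haemostasis list, had -0.86, and C8g, a chain of the membrane attack complex, had -0.84. The highest were C6 at 0.10 (-0.05 to 0.25) and C9 at 0.08 (-0.09 to 0.24), both parts of the same complex. Mbl1, a mannose-binding lectin, had -0.14 (-0.40 to 0.12).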
